A study of Mus musculus with 43 samples.

Results

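The genes described here are the 10 core clock and output genes Arntl, Clock, Per1, Per2, Per3, Cry1, Cry2, Nr1d1, Nr1d2 and Dbp, out of 26218 symbols in the deposited tables. The set was chosen with earlier results of these data known, and its rows were found by symbol. Each symbol stood on a single row of both tables. The genes are followed through 43 poly(A) RNA libraries of mouse embryonic fibroblasts (MEF) in 13 groups. The siRNA system set a control siRNA against one that knocks down Son, a splicing protein of nuclear speckles, in cells given the solvent DMSO or tunicamycin, which blocks N-glycosylation and stresses the endoplasmic reticulum (4 groups of 4 libraries). In the CRISPRa system a catalytically dead Cas9 activator was guided by a control sgRNA or by a Son sgRNA labelled as overexpression, again in DMSO or tunicamycin (4 groups of 3 libraries). In the drug system wild-type MEF were kept for 24 h in DMSO or in a drug, namely nintedanib at 3 µM, ponatinib at 1 µM, proflavine hemisulfate at 3 µM and pyrvinium pamoate at 1 µM (5 groups of 3 libraries). Nintedanib and ponatinib are inhibitors of tyrosine kinases, proflavine is an acridine that binds nucleic acids, and pyrvinium is an anthelmintic. The sources used here give no dose or duration of tunicamycin, no hour of harvest and no word on whether the cells' clocks were synchronised. Each library is therefore a single reading of genes whose RNA cycles over the day.

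The mammalian clock is a loop of transcription and translation that runs in nearly every cell, fibroblasts included. BMAL1 (the product of Arntl) and CLOCK bind E-box elements as a pair and switch on the Per and Cry genes, whose proteins return to the nucleus and repress that pair. The same pair drives Nr1d1 and Nr1d2, which encode the nuclear receptors REV-ERB alpha and beta, and these repress Arntl and Clock. Dbp is also driven by the E-box pair, and its protein acts on D-box elements, among them those of the Per genes. In a running clock Dbp, Nr1d1 and the Per genes peak in a phase nearly opposite to that of Arntl.

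These elements can be seen in the RefSeq promoters of 3 members. They are shown because Per1, Per3 and Cry1 carry canonical E-box or D-box letters within 250 bases before the start (GRCm38.p6, 5′ to 3′ on the gene's strand), with the matched letters in capitals. For Per1 (chr11:69098699-69098948, plus strand) these are an E-box 166 to 161 bases before the start, the letters AGGTCA on the other strand (those read by REV-ERB and ROR receptors) at 137 to 132, and a D-box at 24 to 17. For Per3 (chr4:151044666-151044915, minus strand) they are a D-box at 205 to 198 and a D-box at 158 to 151. For Cry1 (chr10:85185055-85185304, minus strand) the window holds 1 E-box, at 60 to 55.
Per1: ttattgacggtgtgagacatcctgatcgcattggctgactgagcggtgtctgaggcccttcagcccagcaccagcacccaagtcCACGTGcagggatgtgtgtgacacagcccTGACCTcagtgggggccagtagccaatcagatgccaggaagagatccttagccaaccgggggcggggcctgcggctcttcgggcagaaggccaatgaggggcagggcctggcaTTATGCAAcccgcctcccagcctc
Per3: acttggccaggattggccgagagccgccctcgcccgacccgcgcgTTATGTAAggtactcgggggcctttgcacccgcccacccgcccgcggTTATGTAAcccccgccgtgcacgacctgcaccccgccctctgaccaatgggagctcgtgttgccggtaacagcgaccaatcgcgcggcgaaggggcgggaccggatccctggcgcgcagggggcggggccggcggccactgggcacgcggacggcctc
Cry1: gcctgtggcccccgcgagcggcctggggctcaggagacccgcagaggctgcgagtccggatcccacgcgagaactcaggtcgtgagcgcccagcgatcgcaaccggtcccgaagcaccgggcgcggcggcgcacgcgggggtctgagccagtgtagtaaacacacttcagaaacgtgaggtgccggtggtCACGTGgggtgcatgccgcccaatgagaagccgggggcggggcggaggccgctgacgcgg
The letters searched on both strands were CACGTG for the E-box, TTATGNAA for the D-box, TGACGTCA for the cyclic AMP response element, TGATGNAA for the C/EBP-ATF element and AGGTCA. The E-box letters stood in 6.02% of 32851 RefSeq mouse promoter windows of this length, the D-box letters in 3.07% and AGGTCA in 14.0%. Of the 9 members with a promoter entry (13 windows), Clock and Nr1d2 held AGGTCA alone, and the windows of Arntl, Cry2, Nr1d1 and Dbp held none of the 5 motifs. A match is a string of letters and no measurement of binding.

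In the GENCODE annotation of GRCm38 the activators lie at chr7:113207465-113314126 (Arntl, plus strand) and chr5:76209868-76304792 (Clock, minus). The period genes lie at chr11:69095217-69109960 (Per1, plus), chr1:91415982-91459324 (Per2, minus) and chr4:151003652-151044665 (Per3, minus), and the cryptochrome genes at chr10:85131700-85185064 (Cry1, minus) and chr2:92403646-92434043 (Cry2, minus). The REV-ERB genes lie at chr11:98767932-98775333 (Nr1d1, minus) and chr14:18204054-18239127 (Nr1d2, minus), and Dbp at chr7:45705088-45710203 (plus).

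All 10 genes were detected in every library. Their levels are given as deposited, in FPKM for the siRNA and CRISPRa systems and in TPM for the drug system, units scaled to transcript length that were not compared with each other. In control siRNA cells in DMSO Arntl had the highest level of the 10 genes (8.92 ± 0.288 FPKM, SD, n = 4), and Per3 the lowest (0.773 ± 0.0251 FPKM). In control sgRNA cells in DMSO Per1 led with 11.3 ± 0.855 FPKM (SD, n = 3) and Per2 was lowest with 1.21 ± 0.0307 FPKM. In the drug system's DMSO cells Nr1d2 stood at 24.1 ± 2.10 TPM (SD, n = 3) and Per3 at 4.67 ± 0.296 TPM. Parts of the exons of Dbp (18.0%, shared with Sphk2), Nr1d1 (8.55%, shared with Thra), Cry2 (4.67%) and Arntl (0.439%) overlap a gene on the opposite strand. The strand setting of the authors' quantification is not given in the sources used here, so reads from those stretches cannot be assigned with certainty.

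Tests compare groups on the log2(value + 1) scale, in a limma fit over all genes with a mean of at least 1 in a system, and a gene counts as raised or lowered at a Benjamini-Hochberg adjusted p under 0.05. A level is given with its SD and a log2 fold change with its standard error. Per3 passed this filter in the CRISPRa and drug systems only. The labels do not say whether libraries came from separate cultures (the drug columns alone carry the tag brep), so the p-values measure the spread between these libraries. In bulk RNA, fewer cells of a type and less RNA per cell cannot be told apart.

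Son checks the labels of the groups. It fell from 43.5 ± 0.979 to 21.8 ± 0.97 FPKM with the Son siRNA in DMSO. In the libraries labelled Son sgRNA it was not higher, with 51.9, 44.6 and 29.8 FPKM in DMSO against 46.4, 47.5 and 48.3 FPKM with the control sgRNA. The Son sgRNA DMSO library C, the lowest of these, also stood apart in its summed FPKM (498414, against 380638 as the lowest of the system). Summed marker levels of fibroblasts (10 genes) were 882 to 2194 FPKM and 943 to 5226 TPM, while 6 epithelial markers summed to at most 0.946 FPKM and 18.2 TPM, 5 endothelial markers to at most 2.26 TPM and 6 blood cell markers to at most 19.2 TPM. Of the fibroblast markers, 7 of 7 tested fell in tunicamycin with the control siRNA (42.4% of all tested genes fell) and 9 of 9 fell in pyrvinium (40.8%). In proflavine 7 of 9 fell and 2 rose, where 42.4% of all tested genes fell and 27.8% rose. In tunicamycin with the control sgRNA 4 of 8 fell and 1 rose (14.1% and 24.2% of all genes). Against the control sgRNA, the Son sgRNA libraries had 5 of 8 lower in DMSO (5.29% of all genes) and 4 of 8 in tunicamycin (6.86%). In both, 0 were higher (9.11% and 2.59% of all genes). Summed levels of 5 neural markers went from 1.75 to 2.43 FPKM in control siRNA cells in DMSO to 5.98 to 8.79 FPKM in tunicamycin, and from 17.2 to 19.4 TPM in DMSO to 28.7 to 29.3 TPM in nintedanib. Only 1 of the 5 had a mean of at least 1 in each of these groups. In each of the 2 systems 1 neural marker was tested, with log2 changes of 1.37 in tunicamycin and 0.66 in nintedanib. The blood cell markers summed to 5.81 to 6.81 TPM in DMSO, 16.8 to 18.7 TPM in nintedanib and 16.0 to 19.2 TPM in ponatinib. Both tested markers rose in nintedanib and in ponatinib, where 34.3% and 41.1% of all tested genes rose. The 5 muscle markers reached at most 3.81 FPKM and 9.61 TPM, the latter in proflavine. The highest epithelial sum was in a nintedanib library, where the sums ran from 1.97 to 18.2 TPM, against 1.62 to 2.30 TPM in DMSO. The 1 epithelial marker tested was not called in nintedanib (log2 fold change 1.45). The lowest fibroblast sums were in pyrvinium (943 to 1105 TPM, against at most 5226 TPM in DMSO). The part of these markers in the results was not tested.

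Tunicamycin was the first strong stimulus. With the control siRNA 6 of the 9 tested members rose and 2 fell, where 26.6% of 10883 tested genes rose and 42.4% fell. With the Son siRNA 6 rose and 3 fell, against 26.1% and 41.1% of genes. With the control sgRNA 5 of 10 rose and 3 fell, against 24.2% and 14.1% of 11218 genes, and with the Son sgRNA 6 rose and 2 fell, against 22.7% and 26.6%. The median log2 change of the members was 0.34 with the control siRNA and 0.27 with the control sgRNA, beside −0.06 and 0.05 for all tested genes. With median-ratio scaling between libraries the share of raised genes among all those called moved from 38.5% to 49.4% with the control siRNA and from 63.2% to 48.5% with the control sgRNA.

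**Figure D1:**
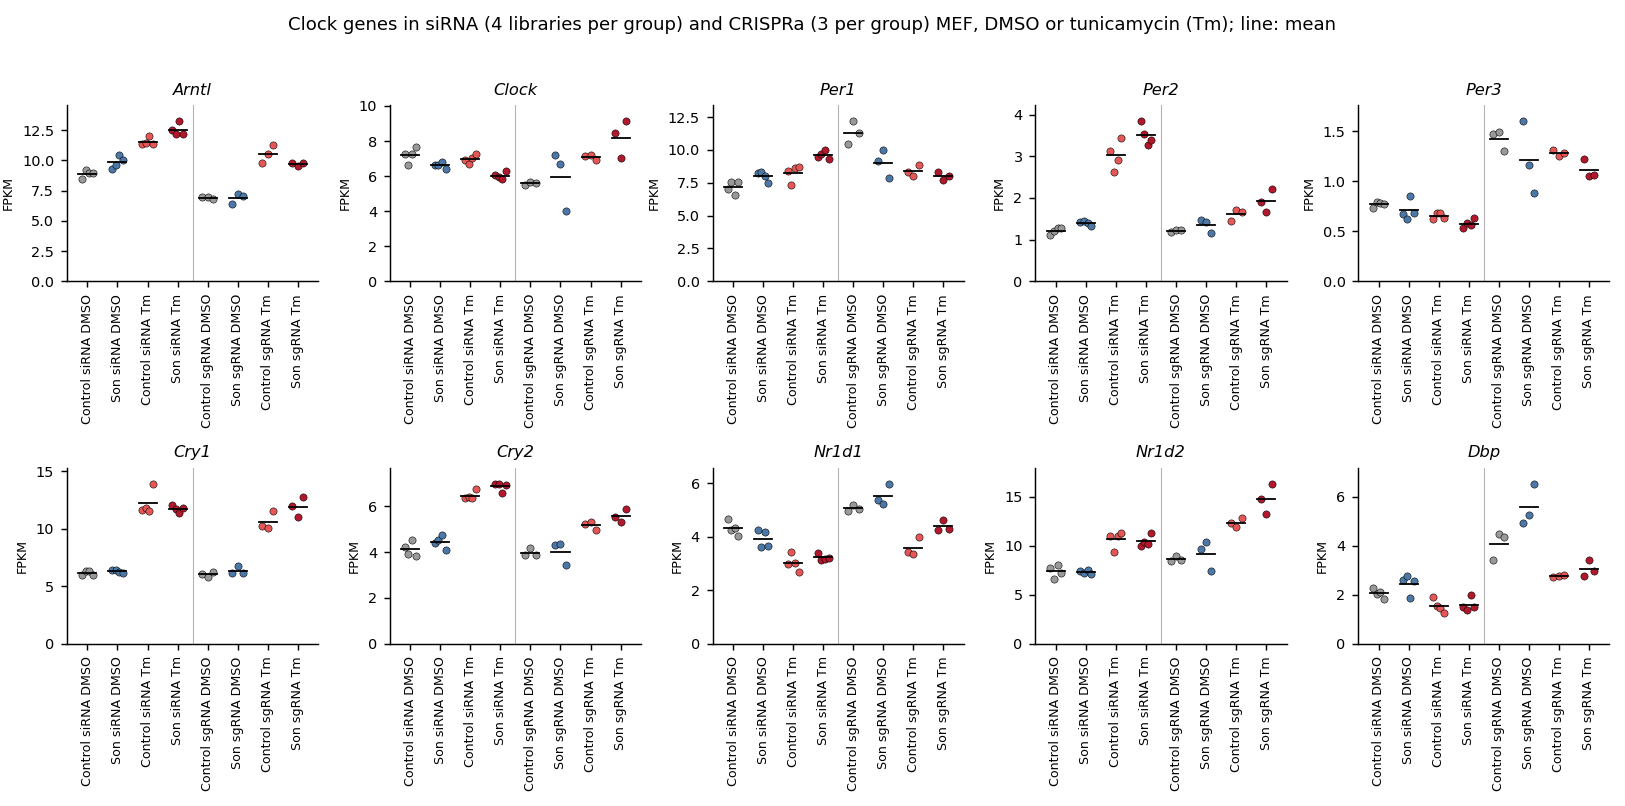
Level in FPKM (y axis, from 0) of each clock gene in every library of the siRNA and CRISPRa groups, where points are libraries and lines are group means. Cry1, Cry2, Arntl and Nr1d2 were higher in all tunicamycin (Tm) groups than in the DMSO group with the same RNA, with no overlap, and Per1 moved in opposite directions between the control groups of the systems.

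Among the activators, Arntl was higher in tunicamycin in all 4 arms. It read 8.51, 9.18, 8.98 and 9.0 FPKM with the control siRNA in DMSO and 11.4, 11.4, 12.0 and 11.3 FPKM in tunicamycin, 2 ranges that did not overlap (log2 fold change 0.34 ± 0.04, adjusted p = 4.06e-07). In control sgRNA cells it went from 6.98, 6.99 and 6.78 FPKM to 9.76, 10.5 and 11.3 FPKM, also without overlap (0.54 ± 0.06, adjusted p = 4.14e-05). Clock, its partner, was called lower with the Son siRNA, higher with the Son sgRNA and in neither control arm. Its levels overlapped between DMSO (6.62 to 7.68 FPKM) and tunicamycin (6.68 to 7.26 FPKM) with the control siRNA, and with the Son siRNA it fell by 0.12 ± 0.04 (adjusted p = 0.0151), a call lost under median-ratio scaling (adjusted p = 0.108). With the control sgRNA every tunicamycin library (6.93 to 7.20 FPKM) lay above every DMSO library (5.49 to 5.67 FPKM), yet the test did not call it (0.30 ± 0.15, adjusted p = 0.143). Without the Son sgRNA DMSO library C, which shares in the estimate of the spread and read 3.98 FPKM for Clock, it was called (0.30, adjusted p = 0.00431). With the Son sgRNA Clock rose (0.43 ± 0.15, adjusted p = 0.0334), a call lost without the Son sgRNA tunicamycin library A (0.41, adjusted p = 0.0877) or C (0.36, adjusted p = 0.119), with no filter (adjusted p = 0.073) and with only the groups compared (adjusted p = 0.13). Without Son sgRNA DMSO library C that rise of Clock was 0.21 (adjusted p = 0.0498).

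The repressors Cry1 and Cry2, whose proteins hold the BMAL1 and CLOCK pair inactive, rose in every arm. Cry1 nearly doubled with the control siRNA, from 5.92, 6.27, 6.34 and 5.98 FPKM to 11.6, 11.8, 11.6 and 13.9 FPKM. All tunicamycin libraries were far above all DMSO libraries, and the ratio of means was 1.99 (log2 fold change 0.89 ± 0.05, adjusted p = 3.92e-11). The other arms gave log2 changes of Cry1 of 0.80 with the Son siRNA, 0.73 with the control sgRNA and 0.82 with the Son sgRNA. Cry2 read 3.83 to 4.52 FPKM in control siRNA cells in DMSO and 6.36 to 6.77 FPKM in tunicamycin (0.55 ± 0.05, adjusted p = 1.43e-08). Control sgRNA cells gave 3.86 to 4.16 and 4.97 to 5.33 FPKM (0.31 ± 0.08, adjusted p = 0.00707).

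The period genes split. Per2 rose in each arm, most in the siRNA system, where it went from 1.11, 1.21, 1.27 and 1.28 FPKM in DMSO to 3.12, 2.63, 2.90 and 3.43 FPKM in tunicamycin with the control siRNA. The ranges did not overlap and the ratio of means was 2.48 (log2 fold change 0.86 ± 0.06, adjusted p = 1.12e-09). In control sgRNA cells the Per2 levels were 1.17, 1.23 and 1.23 FPKM in DMSO and 1.46, 1.70 and 1.66 FPKM in tunicamycin, again apart (0.24 ± 0.08, adjusted p = 0.0406). With a pseudocount of 0.1 the fold change was 0.38. That call of Per2 was lost under median-ratio scaling (adjusted p = 0.0568) and without any 1 of control sgRNA DMSO libraries A, B and C, control sgRNA tunicamycin libraries B and C or Son sgRNA tunicamycin library A (log2 fold change 0.21 to 0.24, adjusted p 0.0519 to 0.125). Per1, a sister gene of Per2 whose product also represses the BMAL1 and CLOCK pair, went up with the control siRNA and down with the control sgRNA. In the first case it read 7.03, 7.52, 6.55 and 7.54 FPKM in DMSO and 8.39, 7.33, 8.61 and 8.67 FPKM in tunicamycin, with library B of tunicamycin inside the DMSO range (0.18 ± 0.05, adjusted p = 0.00454). In the second it read 10.5, 12.2 and 11.3 FPKM in DMSO and 8.32, 8.05 and 8.87 FPKM in tunicamycin, without overlap (−0.39 ± 0.08, adjusted p = 0.0026). Per3 stayed below the filter with the siRNAs (group means 0.579 to 0.773 FPKM). With the sgRNAs it was not called, at −0.09 ± 0.10 with the control sgRNA and −0.06 ± 0.10 with the Son sgRNA.

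The REV-ERB genes also moved in opposite directions. Nr1d1 fell with the control siRNA from 4.67, 4.24, 4.31 and 4.03 FPKM to 2.97, 3.41, 3.02 and 2.67 FPKM, with every tunicamycin library below every DMSO library (log2 fold change −0.41 ± 0.06, adjusted p = 9.55e-06). It fell with the control sgRNA as well, from 4.96 to 5.18 FPKM in DMSO to 3.34 to 3.98 FPKM (−0.41 ± 0.07, adjusted p = 0.000754). Its paralog Nr1d2 rose in the same libraries, from 6.59 to 8.0 FPKM to 9.29 to 11.3 FPKM with the control siRNA (0.48 ± 0.06, adjusted p = 1.38e-06). In control sgRNA cells Nr1d2 went from 8.43 to 8.91 FPKM to 11.9 to 12.8 FPKM (0.47 ± 0.10, adjusted p = 0.00332). The output gene Dbp fell along with Nr1d1. It read 2.29, 2.01, 2.13 and 1.81 FPKM with the control siRNA in DMSO and 1.89, 1.53, 1.47 and 1.27 FPKM in tunicamycin, where library A of tunicamycin lay within the DMSO range (−0.27 ± 0.09, adjusted p = 0.0148). This call was lost without the control siRNA tunicamycin library D (−0.22, adjusted p = 0.0532). With the control sgRNA Dbp fell from 3.41, 4.49 and 4.36 FPKM to 2.71, 2.78 and 2.79 FPKM, with no overlap (−0.43 ± 0.11, adjusted p = 0.0072).

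Whether the response to tunicamycin differs between the systems was tested after these levels had been seen, as the difference of the control arms' responses in 1 fit of the 28 FPKM libraries. The difference was called for 4 of 9 members, where 20.2% of 11131 genes were called. Per1 differed by 0.57 ± 0.09 (adjusted p = 0.000125) and Per2 by 0.62 ± 0.10 (adjusted p = 8.15e-05), both higher in the siRNA system, and neither call was lost without any 1 library. Arntl differed by −0.20 ± 0.07 (adjusted p = 0.0318), a call that was lost under median-ratio scaling (−0.08, adjusted p = 0.506) and without any 1 of 10 libraries: control siRNA DMSO B, C and D, control siRNA tunicamycin B and D, control sgRNA DMSO A, B and C and control sgRNA tunicamycin B and C (−0.21 to −0.15). Cry2 (0.23 ± 0.08, adjusted p = 0.0496) sat at the threshold and was no longer called without any 1 of 21 of the 28 libraries, all but control siRNA DMSO C, Son siRNA DMSO D, Son sgRNA DMSO A, B and C and Son sgRNA tunicamycin B and C (0.20 to 0.25, adjusted p 0.05 to 0.125). Clock was not called (−0.34 ± 0.14, adjusted p = 0.0929) except without Son sgRNA DMSO library C (adjusted p = 0.00215) or with only the groups compared (adjusted p = 0.00138), and Cry1 only under median-ratio scaling (0.29, adjusted p = 0.0144). The median of all genes was −0.11, and under median-ratio scaling raised calls went from 19.7% to 68.0% of those called. The systems differ in more than the RNA delivered: the X-inactivation transcript Xist read 24.7 to 33.8 FPKM in the siRNA libraries and at most 0.00671 FPKM in the CRISPRa libraries. Cells, delivery and any difference in tunicamycin exposure cannot be told apart.

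The changes of clock genes with the Son siRNA were small. In DMSO 2 of 9 members were raised and 1 lowered, near the shares of all genes (20.0% and 16.1%). Arntl rose by 0.13 ± 0.04 (adjusted p = 0.0113), from 8.51 to 9.18 FPKM with the control siRNA to 9.33, 9.61, 10.5 and 10.1 FPKM, without overlap. Per1 rose by 0.15 ± 0.05 (adjusted p = 0.0329), with 8.23, 8.34, 8.03 and 7.49 FPKM, the last inside the control range. That call was lost without any 1 of control libraries A and C or Son siRNA libraries A, B and C (0.11 to 0.14, adjusted p 0.0628 to 0.113) and with no filter on low values (adjusted p = 0.0625). Clock fell by 0.11 ± 0.04 (adjusted p = 0.0402), with 6.40 to 6.82 FPKM against an overlapping 6.62 to 7.68 FPKM. It too was lost without any 1 of control libraries A, C and D or Son siRNA libraries A, B and D (adjusted p 0.072 to 0.13), with no filter (adjusted p = 0.0594) or with only the groups compared (adjusted p = 0.065). Conversely Cry2 was called without control siRNA DMSO library C (0.12, adjusted p = 0.0455) and Dbp without Son siRNA DMSO library C (0.25, adjusted p = 0.0374).

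In tunicamycin the Son siRNA raised 3 members and lowered 1, against 30.6% and 20.4% of all genes. Per1 reached 9.48, 9.70, 9.97 and 9.29 FPKM, above all 4 control siRNA libraries in tunicamycin (0.20 ± 0.05, adjusted p = 0.0035). Clock read 6.07, 5.94, 5.82 and 6.27 FPKM, below all of them (−0.18 ± 0.04, adjusted p = 0.00109). Arntl (0.11 ± 0.04, adjusted p = 0.0211) was lost without the Son siRNA tunicamycin library C (0.09, adjusted p = 0.0765). Per2 (0.17 ± 0.06, adjusted p = 0.0238) was lost without any 1 of control tunicamycin libraries B and C or Son siRNA tunicamycin library A (0.12 to 0.15, adjusted p 0.0583 to 0.0869) and with only the groups compared (adjusted p = 0.067). Limma's test of whether the Son siRNA altered the response to tunicamycin called 0 of 9 members, 1 with an unadjusted p under 0.05, and 1.68% of all genes. The largest such difference among the members was that of Nr1d1, 0.19 ± 0.08 (adjusted p = 0.223).

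In the libraries labelled Son sgRNA 1 member was higher and 1 lower than with the control sgRNA in DMSO, against 9.11% and 5.29% of all genes (63.3% of the calls were raised, and 47.0% under median-ratio scaling). Dbp read 4.95, 5.24 and 6.54 FPKM against 3.41, 4.49 and 4.36 FPKM, without overlap (0.37 ± 0.11, adjusted p = 0.0361). Per1 read 9.19, 9.96 and 7.87 FPKM against 10.5, 12.2 and 11.3 FPKM, also apart (−0.30 ± 0.08, adjusted p = 0.0263). Neither call held with only the groups compared (adjusted p = 0.137 for Dbp and 0.124 for Per1). Without the Son sgRNA DMSO library C, which holds the highest Dbp and the lowest Per1 value, Dbp was not called (0.27, adjusted p = 0.0725), while Clock was (0.27, adjusted p = 0.0388). Dbp was also lost without any 1 of control sgRNA DMSO libraries A, B and C, control sgRNA tunicamycin libraries A, B and C or Son sgRNA DMSO library B (0.27 to 0.43, adjusted p 0.0542 to 0.136), and Per1 without control sgRNA DMSO library B (−0.25, adjusted p = 0.119) or C (−0.30, adjusted p = 0.0852). Without the Son sgRNA DMSO library A Per3 was called (−0.26, adjusted p = 0.0471).

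In tunicamycin limma called 0 of 10 members between the Son sgRNA and the control sgRNA, 3 with an unadjusted p under 0.05, against 2.59% of genes raised and 6.86% lowered (27.4% of the calls raised, and 45.1% under median-ratio scaling). Nr1d1 came nearest, with 4.25, 4.61 and 4.27 FPKM above the control's 3.43, 3.34 and 3.98 FPKM (0.23 ± 0.07, adjusted p = 0.058). Nr1d1 was called under median-ratio scaling (0.26, adjusted p = 0.0481) and without control sgRNA tunicamycin library C (0.29, adjusted p = 0.038) or Son sgRNA DMSO library C (0.23, adjusted p = 0.0178), and Nr1d2 without the latter (0.24, adjusted p = 0.0203). The test for a difference of the tunicamycin responses between the sgRNAs called 0 of 10 members and 0% of genes, with 0 members and 908 genes at an unadjusted p under 0.05. The tunicamycin contrast of the Son sgRNA arm left Per1 uncalled (−0.15 ± 0.08, adjusted p = 0.144), and without Son sgRNA DMSO library C it was called (−0.23, adjusted p = 0.0115).

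**Figure D2:**
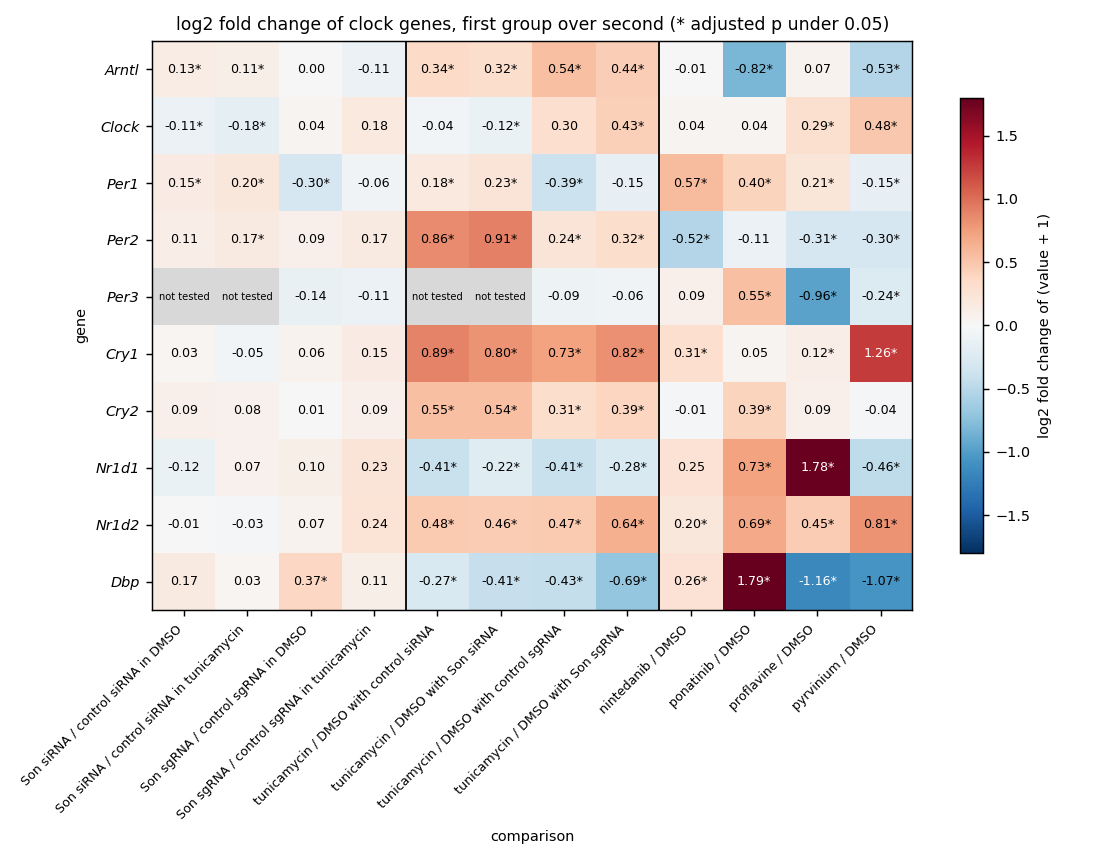
Log2 fold change of (value + 1) for the 10 clock genes (rows) in 12 comparisons (columns), red for higher and blue for lower in the first-named group, with asterisks at an adjusted p under 0.05. The 4 Son columns are pale, the 4 tunicamycin columns share raised Cry1, Cry2, Per2, Nr1d2 and Arntl with lowered Nr1d1 and Dbp, and the 4 drug columns each differ, from Dbp at 1.79 in ponatinib to −1.16 in proflavine.

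The 4 drugs, which share their 3 DMSO libraries, gave the largest single changes of clock genes, those of Dbp in ponatinib and Nr1d1 in proflavine. Nintedanib raised 4 of 10 members and lowered 1, against 34.3% and 22.1% of 12132 genes. Ponatinib raised 6 and lowered 1, against 41.1% and 21.4%. Proflavine raised 5 and lowered 3, against 27.8% and 42.4%. Pyrvinium raised 3 and lowered 6, against 36.6% and 40.8%. The median log2 changes of the members were 0.14, 0.40, 0.10 and −0.20 in that order, beside 0.04, 0.10, −0.09 and −0.03 for all genes. Under median-ratio scaling the raised share of calls went from 60.8% to 45.2% for nintedanib and from 65.8% to 48.2% for ponatinib, and the scaling shifted the median of all genes in ponatinib by −0.11, so that changes of that size there depend on the scaling.

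**Figure D3:**
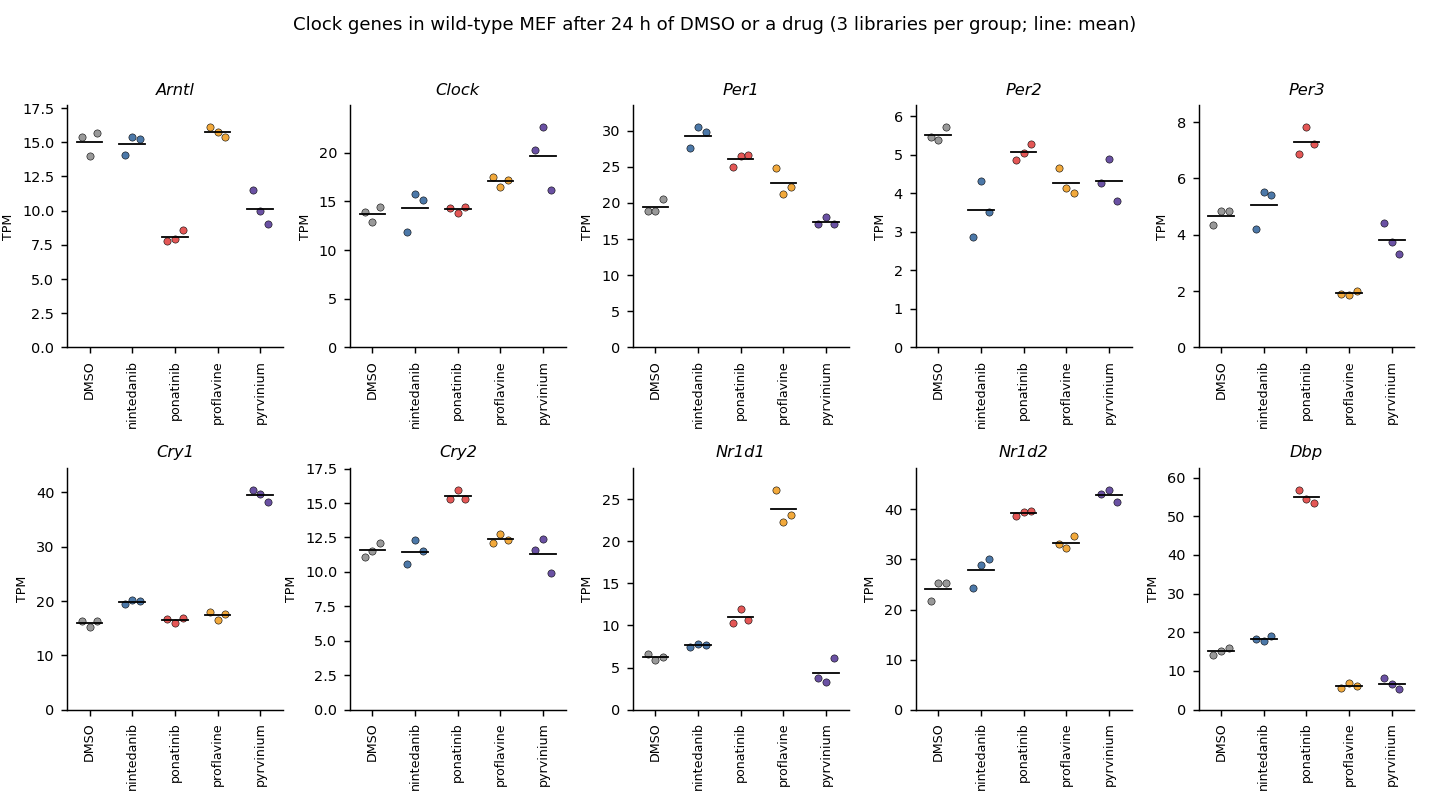
Level in TPM (y axis, from 0) of each clock gene in every library of the drug system, where points are libraries and lines are group means. Dbp stands at 53.4 to 56.9 TPM in ponatinib, Nr1d1 at 22.3 to 26.1 TPM in proflavine and Cry1 at 38.3 to 40.5 TPM in pyrvinium, each above every other group.

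The activators responded apart from each other. Arntl read 15.4, 14.0 and 15.7 TPM in DMSO and 7.76, 7.93 and 8.57 TPM in ponatinib, where all libraries were below all DMSO libraries (ratio of means 0.539, log2 fold change −0.82 ± 0.08, adjusted p = 2.5e-07). In pyrvinium it read 11.5, 9.94 and 9.01 TPM, likewise below DMSO (−0.53 ± 0.08, adjusted p = 1.27e-05). In nintedanib (14.0 to 15.4 TPM) and proflavine (15.4 to 16.1 TPM) it overlapped DMSO and was not called, although median-ratio scaling called proflavine (0.14, adjusted p = 0.0334). The order of Arntl levels thus ran from proflavine, DMSO and nintedanib, whose ranges overlap in turn, down to pyrvinium and then ponatinib, each apart from its neighbour. Clock, in contrast, was higher in pyrvinium, at 20.3, 22.6 and 16.1 TPM against 13.9, 12.9 and 14.4 TPM in DMSO (0.48 ± 0.11, adjusted p = 0.000785). In proflavine Clock rose to 17.5, 16.5 and 17.2 TPM (0.29 ± 0.11, adjusted p = 0.0226), a call lost without DMSO library 2 (0.25, adjusted p = 0.0818) or proflavine library 1 (0.28, adjusted p = 0.0626) or 3 (0.29, adjusted p = 0.0538). Changes of 0.04 in nintedanib and in ponatinib were not called and turned to −0.04 and −0.06 under median-ratio scaling.

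Of the Per and Cry genes, Cry1 gave the largest change. It read 16.2, 15.2 and 16.3 TPM in DMSO and 40.5, 39.7 and 38.3 TPM in pyrvinium. No library came between those ranges, and the ratio of means was 2.48 (log2 fold change 1.26 ± 0.05, adjusted p = 2.68e-12). Nintedanib raised Cry1 to 19.5, 20.2 and 20.0 TPM (0.31 ± 0.05, adjusted p = 6.03e-05). Proflavine gave 17.9, 16.6 and 17.7 TPM, against 15.2 to 16.3 TPM in DMSO (0.12 ± 0.05, adjusted p = 0.0355). Under median-ratio scaling the change was 0.20. The call was lost without DMSO library 2 (0.09, adjusted p = 0.152) or proflavine library 1 (0.10, adjusted p = 0.124) or 3 (0.11, adjusted p = 0.0973). Ponatinib left Cry1 overlapping DMSO (0.05 ± 0.05, −0.06 under median-ratio scaling). Cry2 was called in ponatinib alone, at 15.3, 16.0 and 15.3 TPM against 11.1, 11.5 and 12.1 TPM in DMSO, without overlap (0.39 ± 0.07, adjusted p = 0.000275). In pyrvinium, the drug of the Cry1 rise, Cry2 ranged from 9.89 to 12.4 TPM around the DMSO values (−0.04 ± 0.07, 0.0039 under median-ratio scaling), and median-ratio scaling called it in proflavine (0.16, adjusted p = 0.00888).

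The period genes had their own orders. Per1 read 18.9, 18.8 and 20.5 TPM in DMSO and 27.6, 30.4 and 29.8 TPM in nintedanib, all above DMSO (log2 fold change 0.57 ± 0.06, adjusted p = 1.28e-06). Its levels descended through ponatinib (24.9 to 26.6 TPM, 0.40 ± 0.06, adjusted p = 3.6e-05) and proflavine (21.3 to 24.8 TPM, 0.21 ± 0.06, adjusted p = 0.00536) to DMSO and then pyrvinium (17.1 to 18.0 TPM, −0.15 ± 0.06, adjusted p = 0.0331), with no neighbouring ranges that overlap. The pyrvinium call of Per1 was lost under median-ratio scaling (−0.11, adjusted p = 0.0719) and without DMSO library 3 (adjusted p = 0.142) or pyrvinium library 1 (adjusted p = 0.0814) or 3 (adjusted p = 0.072). Per2 was highest in DMSO, at 5.48, 5.39 and 5.71 TPM, and lowest in nintedanib, at 2.87, 4.33 and 3.52 TPM (−0.52 ± 0.11, adjusted p = 0.000591). Nintedanib therefore had the highest Per1 and the lowest Per2 mean of the 5 groups. Proflavine (4.02 to 4.66 TPM) and pyrvinium (3.81 to 4.89 TPM) also lowered Per2, by −0.31 ± 0.11 (adjusted p = 0.0172) and −0.30 ± 0.11 (adjusted p = 0.0181). The proflavine call was lost without DMSO library 3 (adjusted p = 0.053) or proflavine library 3 (adjusted p = 0.061), and the pyrvinium call without DMSO library 3 (adjusted p = 0.0544) or pyrvinium library 3 (−0.23, adjusted p = 0.0762).

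Per3 read 4.33, 4.85 and 4.84 TPM in DMSO and 6.86, 7.81 and 7.21 TPM in ponatinib (log2 fold change 0.55 ± 0.10, adjusted p = 0.000241). In proflavine Per3 was down to 1.90, 1.86 and 2.00 TPM, a ratio of means of 0.411 (−0.96 ± 0.10, adjusted p = 6.11e-07). Both groups stood clear of DMSO, on opposite sides. In pyrvinium it read 4.42, 3.74 and 3.30 TPM (−0.24 ± 0.10, adjusted p = 0.0403). This call was lost with no filter (adjusted p = 0.0648), with only the groups compared (adjusted p = 0.0684), and without any 1 of DMSO libraries 2 and 3, ponatinib library 3 or pyrvinium libraries 2 and 3 (−0.24 to −0.16, adjusted p 0.0501 to 0.162).

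The REV-ERB genes responded differently from each other. Nr1d1 read 6.57, 5.85 and 6.29 TPM in DMSO and 26.1, 22.3 and 23.1 TPM in proflavine, a 3.82-fold rise of the mean (log2 fold change 1.78 ± 0.14, adjusted p = 2.33e-08). Ponatinib raised it to 10.3, 12.0 and 10.7 TPM (0.73 ± 0.14, adjusted p = 0.000342). Both groups lay wholly above DMSO. In pyrvinium Nr1d1 read 3.78, 3.25 and 6.18 TPM (−0.46 ± 0.14, adjusted p = 0.00754), where library 3 lay within the DMSO range, and with only the groups compared the adjusted p was 0.0516. Without pyrvinium library 2 it was −0.30 (adjusted p = 0.047). Nintedanib gave 7.42, 7.76 and 7.70 TPM, above all DMSO libraries but not called (0.25 ± 0.14, adjusted p = 0.133). With only the groups compared (adjusted p = 0.0147) or without pyrvinium library 3 (adjusted p = 0.00821) nintedanib was called. Nr1d2 rose with all 4 drugs. From 21.7, 25.4 and 25.3 TPM in DMSO it went to 43.1, 43.9 and 41.5 TPM in pyrvinium (0.81 ± 0.07, adjusted p = 6.13e-08) and 38.7, 39.4 and 39.6 TPM in ponatinib (0.69 ± 0.07, adjusted p = 9.54e-07). It reached 32.3 to 34.6 TPM in proflavine (0.45 ± 0.07, adjusted p = 4.44e-05). Nintedanib overlapped DMSO at 24.3, 29.0 and 30.2 TPM (0.20 ± 0.07, adjusted p = 0.0294). That call was lost under median-ratio scaling (0.11, adjusted p = 0.103), with only the groups compared (adjusted p = 0.118) and without DMSO library 1 (0.13, adjusted p = 0.159) or nintedanib library 2 (0.17, adjusted p = 0.102) or 3 (0.14, adjusted p = 0.142).

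The output gene Dbp changed most in ponatinib. It read 14.2, 15.2 and 16.1 TPM in DMSO and 56.9, 54.4 and 53.4 TPM in ponatinib, 3.63-fold higher in the mean (log2 fold change 1.79 ± 0.10, adjusted p = 9.56e-10). In proflavine it was down to 5.69, 6.95 and 6.07 TPM (−1.16 ± 0.10, adjusted p = 6e-08) and in pyrvinium to 8.09, 6.75 and 5.45 TPM (−1.07 ± 0.10, adjusted p = 9.72e-08). These 3 groups stood clear of DMSO, and the ranges of proflavine and pyrvinium overlapped each other. Nintedanib, at 18.1, 17.7 and 19.0 TPM, was above every DMSO library (0.26 ± 0.10, adjusted p = 0.0379). The call was lost with no filter (adjusted p = 0.0676), under median-ratio scaling (0.17, adjusted p = 0.0977) and without any 1 of DMSO libraries 1 and 2 or nintedanib libraries 1, 2 and 3 (0.21 to 0.28, adjusted p 0.0533 to 0.128).

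**Figure D4:**
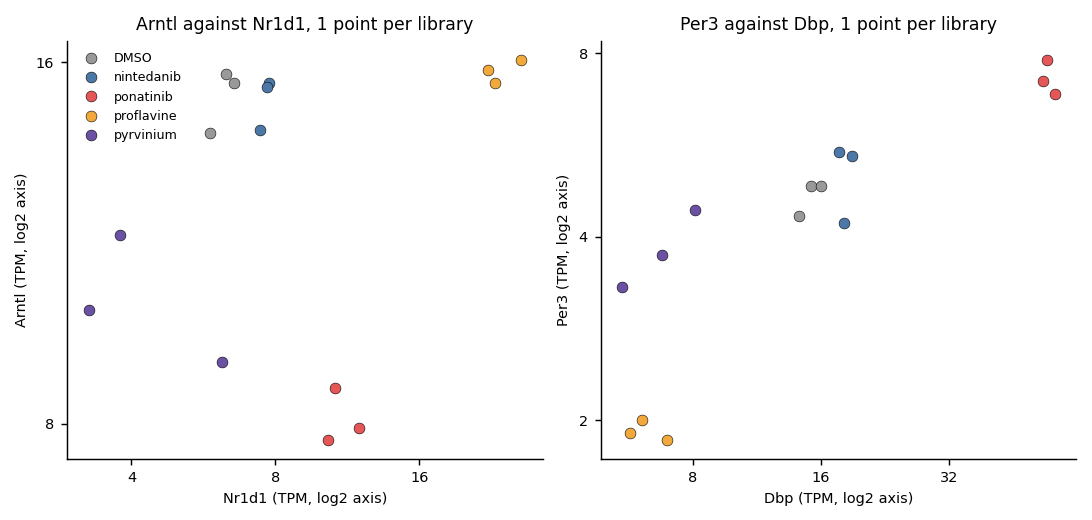
Levels in TPM on log2 axes in the 15 drug libraries, 1 point per library coloured by group, for Arntl against Nr1d1 (left) and Per3 against Dbp (right). Proflavine libraries have Nr1d1 at 22.3 to 26.1 TPM with Arntl at 15.4 to 16.1 TPM, while ponatinib libraries have Nr1d1 at 10.3 to 12.0 TPM with Arntl at 7.76 to 8.57 TPM, and Per3 and Dbp are both highest in ponatinib.

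In the plot of Arntl against Nr1d1, the RNA levels of these genes had different orders over the drugs. Proflavine had the highest Nr1d1 and an Arntl level that overlapped DMSO. Ponatinib had a smaller rise of Nr1d1 and the lowest Arntl, and pyrvinium had lowered levels of both. Nr1d2, the other REV-ERB gene, had its highest means in pyrvinium (42.9 TPM) and ponatinib (39.3 TPM). Those groups had the lowest Arntl means (10.1 and 8.09 TPM). Nr1d2 means were lower in proflavine (33.3 TPM), nintedanib (27.8 TPM) and DMSO (24.1 TPM), where Arntl means were 15.7, 14.9 and 15.0 TPM. In tunicamycin, by contrast, Nr1d2 and Arntl were both higher than in DMSO in every arm of the siRNA and CRISPRa systems. Whether either receptor acted on Arntl in these cells was not tested, and no protein was measured. Dbp and Per3 were both raised in ponatinib and both lowered in proflavine and pyrvinium, though in pyrvinium Per3 overlapped DMSO and its call was lost in several settings. Per1, whose promoter also holds D-box letters, was raised in proflavine, where Dbp fell. Whether DBP acted on the Per genes was not tested. The drug libraries fall into separate groups, so no correlation over these libraries is given.

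The drugs were also compared directly, in 6 pairs. Among the members 9 of 10 differed between nintedanib and ponatinib (59.9% of all genes), 7 between nintedanib and proflavine (75.7%), 8 between nintedanib and pyrvinium (78.8%), 8 between ponatinib and proflavine (79.1%), 8 between ponatinib and pyrvinium (77.7%) and 6 between proflavine and pyrvinium (77.8%). Doses were not equal, at 3 µM for nintedanib and proflavine and 1 µM for ponatinib and pyrvinium. Of the pairs at the same dose, nintedanib and proflavine differed most in Nr1d1 (−1.52 ± 0.14, adjusted p = 9.1e-08) and Dbp (1.42 ± 0.10, adjusted p = 4.2e-09). Ponatinib and pyrvinium differed in Dbp by 2.86 ± 0.10 (adjusted p = 1.21e-12), 8.12-fold in the means, and in Cry1 by −1.21 ± 0.05 (adjusted p = 4.91e-12). Proflavine and pyrvinium had similar means of Dbp (−0.09 ± 0.10, adjusted p = 0.406) beside a 5.41-fold difference in Nr1d1 (2.24 ± 0.14, adjusted p = 9.48e-10). Without pyrvinium library 3 the Dbp difference of that pair was called (−0.22, adjusted p = 0.0245), and without pyrvinium library 1 it turned to 0.03. Median-ratio scaling moved the median of all genes by −0.16 for nintedanib against proflavine, −0.12 for nintedanib against pyrvinium, −0.18 for ponatinib against proflavine and −0.15 for ponatinib against pyrvinium.

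Other genes of the pathway were counted in 3 lists. Beside their counts stand the shares of all genes called, which were 26.6% raised and 42.4% lowered in tunicamycin with the control siRNA and 24.2% and 14.1% with the control sgRNA. Nothing particular to a list is read from these counts. Of 17 accessory regulators, 3 rose and 5 fell among 10 tested in tunicamycin with the control siRNA, and 4 rose and 4 fell among 13 with the control sgRNA. Ciart, which encodes a repressor of the BMAL1 and CLOCK pair, rose from 3.01 to 19.9 FPKM in the mean with the control siRNA (log2 fold change 2.41 ± 0.15, adjusted p = 3.15e-10). Bhlhe40, an E-box repressor also known as DEC1, fell from 28.0 to 13 FPKM (−1.06 ± 0.09) and Nfil3, which competes with DBP for D-boxes, rose from 23.9 to 45.5 FPKM (0.90 ± 0.04). With the control sgRNA Bhlhe40 fell by 1.20 ± 0.14 and Nfil3 rose by 0.42 ± 0.07.

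In the drug system 15 of the 17 accessory regulators were tested. All genes gave 34.3% raised and 22.1% lowered in nintedanib, 41.1% and 21.4% in ponatinib, 27.8% and 42.4% in proflavine and 36.6% and 40.8% in pyrvinium. Of the 15, nintedanib raised 6 and lowered 4, ponatinib raised 7 and lowered 4, proflavine raised 5 and lowered 7 and pyrvinium raised 7 and lowered 5. In pyrvinium Ciart rose from 11 to 60.8 TPM (2.36 ± 0.11, adjusted p = 2.82e-11), Nfil3 from 32.2 to 69.6 TPM (1.08 ± 0.07), and Bhlhe40 fell from 77.3 to 17.8 TPM (−2.07 ± 0.07). Ponatinib raised Tef, a D-box activator related to DBP, from 56.2 to 107 TPM (0.91 ± 0.06). Proflavine raised Noct, a clock-driven gene for the phosphatase nocturnin, from 33.6 to 115 TPM (1.75 ± 0.07). Between the siRNAs 4 accessory regulators rose and 2 fell in DMSO and 3 rose and 2 fell in tunicamycin, of 10 tested, where all genes gave 20.0% and 16.1% in DMSO and 30.6% and 20.4% in tunicamycin. Between the sgRNAs 0 rose and 2 fell in DMSO and 0 rose and 3 fell in tunicamycin, of 13, where all genes gave 9.11% and 5.29% in DMSO and 2.59% and 6.86% in tunicamycin. Bhlhe40 was among the latter (−0.76 ± 0.14, adjusted p = 0.00441).

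Of 15 kinases and ubiquitin ligases that modify clock proteins, 13 were tested in the FPKM systems. In tunicamycin 6 rose and 4 fell with the control siRNA (26.6% and 42.4% of all genes), and 4 rose and 0 fell with the control sgRNA (24.2% and 14.1%). Gsk3b, a kinase of several clock proteins, rose in both (0.56 ± 0.03 and 0.37 ± 0.12), and its rise was smaller with the Son siRNA than with the control siRNA (difference −0.27 ± 0.05, adjusted p = 0.0187). The Son siRNA itself raised 1 and lowered 1 of the 13 in DMSO (20.0% and 16.1% of all genes) and raised 3 and lowered 3 in tunicamycin (30.6% and 20.4%). With the Son sgRNA 0 and 1 were lower in DMSO and tunicamycin, where 5.29% and 6.86% of all genes were lower. All 15 were tested with the drugs, where, against the same shares of all genes as above, nintedanib raised 2 and lowered 4, ponatinib 5 and 2, proflavine 2 and 3 and pyrvinium 8 and 5. In pyrvinium Prkaa2, a catalytic subunit of AMP kinase, rose from 0.589 to 2.70 TPM (1.22 ± 0.10). Of 12 partners of the clock complexes, tunicamycin raised 4 and lowered 5 with the control siRNA (26.6% and 42.4% of all genes) and raised 3 and lowered 2 with the control sgRNA (24.2% and 14.1%). The Son siRNA raised 3 and lowered 1 in DMSO (20.0% and 16.1% of all genes) and raised 5 and lowered 1 in tunicamycin (30.6% and 20.4%). With the Son sgRNA 3 were higher in DMSO and 1 in tunicamycin, where 9.11% and 2.59% of all genes were higher, and 0 were lower (5.29% and 6.86% of all genes). Nintedanib raised 1 and lowered 4 (34.3% and 22.1% of all genes), ponatinib 2 and 2 (41.1% and 21.4%), proflavine 3 and 2 (27.8% and 42.4%) and pyrvinium 3 and 6 (36.6% and 40.8%). The largest of these changes was that of Sfpq, a nuclear RNA-binding partner of PER complexes, which fell in pyrvinium from 245 to 54.7 TPM (−2.16 ± 0.09, adjusted p = 4.36e-12).

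Likeness of pattern was measured for the 9 members tested in all 3 systems, as Pearson's r of log2 group means over the 13 groups after centring each system, against 10108 genes. The genes most alike were Eri1 for Arntl (r = 0.94), Senp5 for Clock (0.90), Zadh2 for Per1 (0.86), Mcfd2 for Per2 (0.91), AW209491 for Cry1 (0.99), Atf5 for Cry2 (0.97), Snhg3 for Nr1d1 (0.96), Phgdh for Nr1d2 (0.95) and Sulf2 for Dbp (0.98). Among the members themselves Per2 and Cry2 (0.85) and Cry1 and Nr1d2 (0.81) were the most alike pairs, and Clock and Per1 the least (−0.69). Groups of a system share a scale and a few strong treatments set these values, which are given without a test. Each most alike gene was picked for the highest r among 10108 genes over 13 groups, which by itself favours high values.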

How the data were processed

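Poly(A) RNA of mouse embryonic fibroblasts was sequenced from stranded TruSeq libraries, per the labels' protocols. The authors deposited FPKM values for the siRNA and CRISPRa libraries and TPM values for the drug libraries, each already scaled by the authors for length and depth. Neither table holds read counts, so absolute depth is unknown and no counting error is given. Relative depth was estimated from the steps in which low values move. It ranged 1.34-fold over the siRNA libraries, 1.21-fold over the CRISPRa libraries and 1.61-fold over the drug libraries. The sources used here do not say which aligner, annotation or strand setting made each table. Columns were matched to samples by name, and the FPKM columns named Scramble and Nt were read as the control siRNA and control sgRNA. The clock genes and the 3 pathway lists were chosen with earlier results of these data known. From the FPKM values 27 rows named by dates were left out and the row of highest mean was kept for 275 repeated symbols.

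Values were transformed as log2(value + 1), which understates changes of low genes. Each system was fitted across all genes with a mean of at least 1 in limma 3.58.1 (R 4.3.3), with all groups of the system in 1 fit and Benjamini-Hochberg adjustment over 10883 (siRNA), 11218 (CRISPRa) or 12132 (drug) genes. The comparison of tunicamycin responses between systems, over 11131 genes, was added after the levels were seen. On simulated data a log2 change of 0.5 was recovered for 98% of genes in the siRNA design, 79% in the CRISPRa design and 83% in the drug design. The simulation drew independent noise with 1 spread per gene. It changed 100 genes by 0.5 and 100 by 1 in 1 comparison of each system, far fewer than were called in most real comparisons. Changes smaller than 0.5 were not simulated. Every member was described in every system. From each pathway list up to 4 genes called in a comparison qualified for naming, by size of change. Some genes of these lists are not reported here. Alternatives were a pseudocount of 0.1, no filter, median-ratio scaling, only the groups compared, a replicate block and leaving out each library. Promoters come from RefSeq (GRCm38.p6).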

Additional observations from a re-analysis of the deposited data

Results flagged for a closer look

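Single libraries stood apart from the other 3 of their group in 5 of the 40 groups of clock gene values that have 4 libraries, where chance gives about 1 in 20. Among the control siRNA libraries in tunicamycin these were Arntl in library C at 12.0 FPKM, Cry1 in library D at 13.9 FPKM, Cry2 in library D at 6.77 FPKM and Nr1d2 in library B at 9.29 FPKM. Among the Son siRNA libraries in tunicamycin Cry2 in library C, at 6.58 FPKM, lay below the others. The genes were read in the same libraries, so the 40 groups are not independent. Their count therefore gives no test against the rate of 1 in 20.

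The response to tunicamycin differed between the control siRNA and control sgRNA cells by the test of that difference, which was added after the levels were seen. The differences were 0.57 for Per1, 0.62 for Per2, 0.23 for Cry2 and −0.20 for Arntl on the log2 scale, positive where the siRNA system had the higher response. The calls of Cry2 and Arntl were lost when single libraries were left out.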

How the results depend on the processing

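The log2 changes counted in this section do not cover every clock gene in every comparison. For the Son differences of tunicamycin responses only Per1, Nr1d1 and Dbp were counted. For the direct drug pairs only Arntl, Per3, Cry1, Nr1d1 and Dbp were counted. Of these changes 154 kept direction and side of the threshold with no filter, 159 with a pseudocount of 0.1, 149 with only the groups compared and 141 under median-ratio scaling. Calls were lost for 7, 1, 9 and 8 and gained for 0, 0, 3 and 6, in that order. Under that scaling uncalled values turned over for Clock in tunicamycin with the control siRNA (0.011), Cry2 with the Son sgRNA in DMSO (−0.025), Clock in nintedanib (−0.041) and ponatinib (−0.065), Cry1 in ponatinib (−0.060) and Cry2 in pyrvinium (0.0039). With a pseudocount of 0.1 Nr1d1 turned over between the systems (−0.015).

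Members called fell to 1 for the Son siRNA in DMSO with no filter, to 1 for the Son sgRNA in DMSO with no filter or median-ratio scaling and to 0 with only the groups compared. Median-ratio scaling gave 1 for the Son sgRNA in tunicamycin and 3 for nintedanib. Genes called for the difference of responses between the siRNAs moved to 62 with no filter and 285 with the replicate block. With only the groups compared, genes called moved to 573 for the Son sgRNA in DMSO, 7208 for tunicamycin with the control sgRNA, 3214 with the Son sgRNA and 3830 between the systems (1427 under median-ratio scaling). The causes were not tested.

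Leaving out single libraries gave 1 to 3 members for the Son siRNA in DMSO, 0 to 3 and 0 to 2 for the Son sgRNA in DMSO and tunicamycin, 3 to 6 for nintedanib, 5 to 8 for proflavine, 6 to 9 for pyrvinium and 2 to 5 between the systems. Genes called ranged from 24 to 313 for the difference between the siRNAs, 0 to 1 between the sgRNAs, 746 to 2646 and 597 to 2284 for the Son sgRNA in DMSO and tunicamycin, and 1659 to 3610 between the systems. Uncalled log2 changes that crossed 0 were, for the Son siRNA, those of Nr1d2 in DMSO (−0.058 to 0.024) and of Cry1 (−0.076 to 0.0064) and Dbp (−0.040 to 0.094) in tunicamycin. For the Son sgRNA in DMSO they were those of Arntl (−0.032 to 0.042), Clock (−0.091 to 0.267, called at its highest), Cry2 (−0.037 to 0.101) and Nr1d2 (−0.021 to 0.194), and in its tunicamycin response Per3 (−0.167 to 0.064). In nintedanib Arntl (−0.057 to 0.029), Clock (−0.029 to 0.162) and Cry2 (−0.063 to 0.040), in pyrvinium Cry2 (−0.102 to 0.046), between proflavine and pyrvinium Dbp (−0.218, called, to 0.029) and between the systems Nr1d1 (−0.045 to 0.061) and Nr1d2 (−0.040 to 0.064) crossed 0.

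No pairing of the libraries by replicate letter or number was seen, although low correlations over all genes cannot exclude a paired design. Same-lettered libraries had median correlations of 0.015 (siRNA), −0.01 (CRISPRa) and 0.007 (drug), with 3 of 24, 1 of 18 and 2 of 30 over 0.1. With a replicate block 148 changes kept their call and 4 lost it (adjusted p = 0.0525 for Per1 with the Son siRNA in DMSO, 0.0678 for Per2 in tunicamycin with the control sgRNA, 0.0526 for Dbp in nintedanib and 0.0514 for Per3 in pyrvinium). Groups of 3 or 4 libraries limit these comparisons, and so does the hour of harvest, which is not stated and may differ between groups. Without counts the precision of low genes such as Per3 and Dbp is unknown.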

Other observations

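Per3 lay below the filter on low values in the siRNA system. In a fit with no filter tunicamycin lowered it by −0.10 ± 0.03 with the control siRNA (limma, adjusted p = 0.0316) and −0.11 ± 0.03 with the Son siRNA (adjusted p = 0.0151), and the Son siRNA gave −0.05 in DMSO (adjusted p = 0.325) and −0.07 in tunicamycin (adjusted p = 0.154). In control siRNA cells it read 0.736, 0.792, 0.786 and 0.777 FPKM in DMSO and 0.627, 0.684, 0.683 and 0.632 FPKM in tunicamycin, ranges that did not overlap.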
